A study of Mus musculus with 96 samples.

Results

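Zfp42, also known as Rex1, varied widely among the mouse embryonic stem (ES) cells of this plate, and the cells at both ends of its range were compared for every other gene. The wells were chosen by measured Zfp42 values. ES cell wells that held at least 50000 reads on genes were ranked by their counts-per-million value (CPM) of Zfp42, which divides by the gene reads of the well. The 12 highest wells, called Zfp42-high here, were set against the 12 lowest, called Zfp42-low. These 24 wells came from 39 of the 48 ES cell wells, as 9 wells held too few reads, and 15 wells lay in the middle. The whole series held 96 samples.

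The study characterised single mouse cells by single-cell tagged reverse transcription (STRT), which reads transcripts from their 5′ end and keeps their strand. Besides the ES cells, the plate held 44 embryonic fibroblasts (MEFs) and 4 negative control wells. All 24 wells were labelled as ES cells of R1, an established mouse line. The labels named no genetic change, treatment or age and no separate cultures for them, and each well was 1 cell. The Zfp42-high and Zfp42-low wells are therefore treated as cells of 1 culture on 1 plate in 1 library. They are told apart by their own Zfp42 reads. Cells of 1 culture are not replicates, so no test was run and differences carry no p-value or standard error. Differences are described by their size, by exact Poisson intervals on pooled reads, by exact binomial intervals on shares of wells and by the spread over wells. The Poisson intervals cover the counting error of reads only and not the spread between cells.

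Zfp42 encodes a zinc finger protein of the YY1 family and is a classical marker of the undifferentiated state. In mouse ES cells its level is known to vary between cells, and loss of Zfp42 is widely used as a sign that a cell is leaving naive pluripotency, the state of the epiblast before implantation. Naive cells are known for factors such as Esrrb, Klf4, Tfcp2l1 and Nanog, whereas primed cells, which resemble the epiblast after implantation, are known for Fgf5, Otx2 and Pou3f1. Pou5f1 (Oct4) and Sox2 form the core of the network in both states.

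The promoter of the gene that ranked the cells is shown because the core factors described below are known to act through it. The Zfp42 gene lies at chr8:43295067-43307009 (GRCm38.p6, minus strand), and the RefSeq sequence from 250 bases before to 50 bases after its start is chr8:43306960-43307259. Capitals mark the octamer, the motif that the POU domain of Pou5f1 is known to bind.
Zfp42 promoter: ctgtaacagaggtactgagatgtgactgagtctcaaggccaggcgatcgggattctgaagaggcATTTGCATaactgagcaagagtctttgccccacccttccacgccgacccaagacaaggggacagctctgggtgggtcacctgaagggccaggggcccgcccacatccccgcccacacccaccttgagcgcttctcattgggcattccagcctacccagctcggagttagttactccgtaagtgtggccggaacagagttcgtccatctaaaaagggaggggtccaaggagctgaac
Both strands were searched for ATTTGCAT, whose reverse complement is ATGCAAAT, and the match in Zfp42 began 186 bases before the gene start. The same letters occurred in 570 of 32851 RefSeq mouse promoters of this length, or 1.74%. A match of letters is a description of the sequence and not a measured binding site.

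Zfp42 itself chose the wells, so its values describe the choice and support nothing. The Zfp42-high wells ranged from 422.8 to 1456 CPM with a median of 594.9, and the middle wells from 143.3 to 355.8 CPM with a median of 194.0. The Zfp42-low wells ranged from 0 to 128.9 CPM with a median of 1.90, and 6 of the 12 had no Zfp42 read. The last well inside the high group was replicate 47 at 422.8 CPM and the next one outside was replicate 29 at 355.8 CPM. At the other edge, replicate 10 at 128.9 CPM was inside and replicate 48 at 143.3 CPM was outside. Pooled over wells, 1745 Zfp42 reads stood against 78.

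Stray reads set a floor under the low wells. MEFs, a type that should lack Zfp42, held 64 Zfp42 reads in 16 of 44 wells, or 1.82 CPM, at a median of 851801 gene reads a well. Negative control wells held 7 Zfp42 reads in 1 of 4 wells, at a median of 3815 gene reads. One read in replicate 39 of the low group came to 3.798 CPM, near the level in MEFs, and 3 reads, the limit that a count of 0 allows, came to between 8.79 and 54.5 CPM in the low wells. Absence of Zfp42 in a low well is therefore a statement about reads at that depth.

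**Figure D1:**
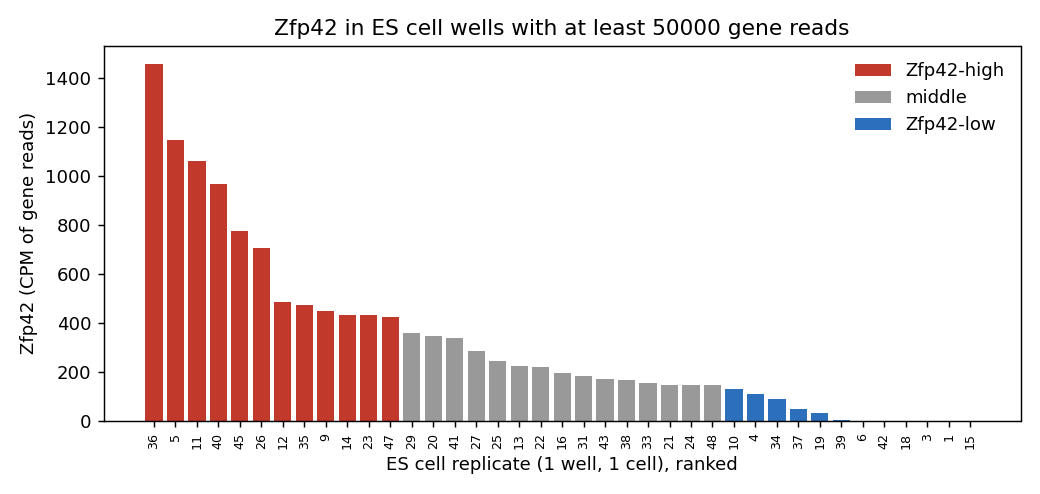
Zfp42 CPM (y axis) in the 39 ES cell wells that passed the depth minimum, ranked (x axis, replicate numbers), with 1 bar per well coloured by group. The wells on either side of the upper edge lie at 422.8 and 355.8 CPM and those at the lower edge at 143.3 and 128.9 CPM, and 6 low wells have no read.

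The wells also differed in depth and in makeup. Zfp42-high wells held between 73583 and 607901 gene reads with a median of 193140, against 55056 to 341279 with a median of 147572 in Zfp42-low wells, and the pooled totals were 2626295 and 1840905. At an equal 50000 reads per well, the median number of genes read was 1988 against 1442. Ribosomal protein genes took 40.3% of pooled gene reads in the high wells and 47.5% in the low wells. Rpl4 alone, named after its value was seen, stood at 133300 against 199050 CPM. Gene reads per spike-in read had medians of 6.81 and 6.71 over wells. The pooled reads were less alike, as spike-in scaling moved the median log2 ratio of all genes from 0.24 to 0.47. Plate rows A to D held 6 high and 8 low wells, and rows E to H held 6 and 4. The part of depth, makeup and plate position in the differences described here was not tested.

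One low well stood apart. Replicate 4 had the lowest depth of the 24 wells, 55056 gene reads, yet 4755 genes were read in it. Ribosomal protein genes took 11.2% of its reads, against 29.5% to 55.6% in the other 23 wells. Fibroblast genes took 5.15% of its reads, near the MEF median of 5.46% and the negative control median of 3.96%, against at most 1.02% in the other 23 wells. Its 6 Zfp42 reads came to 109 CPM.

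**Figure D2:**
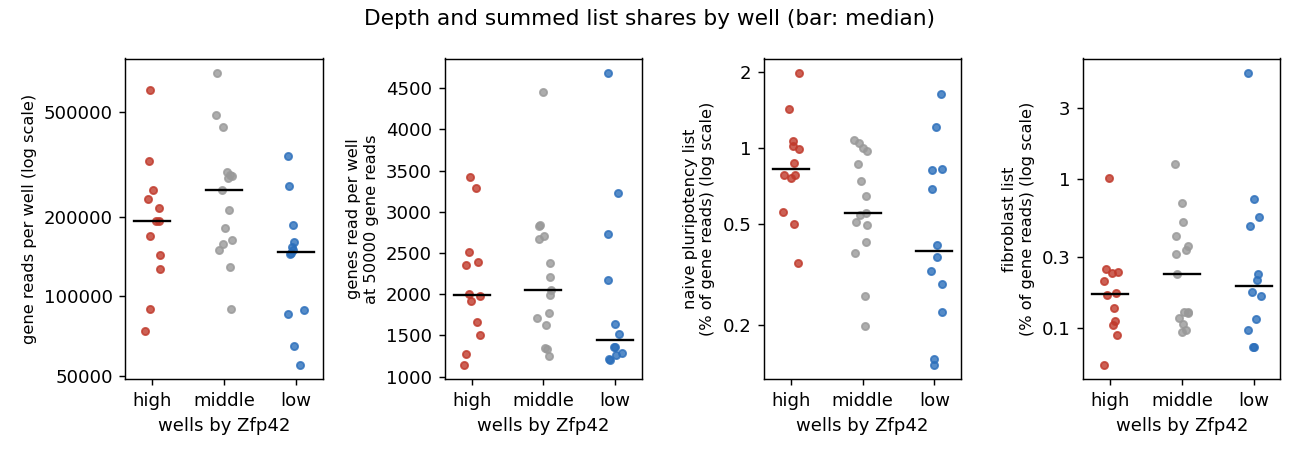
Gene reads (log scale), genes read at 50000 gene reads, and the shares of gene reads on the naive and the fibroblast list (percent, log scale), for the 12 high, 15 middle and 12 low wells, with 1 point per well and a bar at the median. The high and low wells overlap in all 4 measures. One low well, replicate 4, lies apart from the other low wells in genes read and from all other wells in the fibroblast share.

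Over all genes the difference was broad. A gene was measured when it had at least 50 reads and a read in at least 6 of the 24 wells, which 3518 genes other than Zfp42 passed. Each was given the log2 ratio of pooled CPM, high over low, with 10 CPM added to both, which understates changes of low genes. By this measure 932 genes (26.5%) were at least 2-fold higher and 526 (15%) at least 2-fold lower in Zfp42-high wells, with a median of 0.24. These shares are the background for every list below. The well with the highest CPM of a gene in its higher group is called its top well here. When each gene's top well was left out, a step chosen for these counts after seeing the data, 562 (16%) were higher and 250 (7.11%) lower by that size. Of all genes past 2-fold, 63.9% were higher in the high wells, against 52.1% under median-of-ratios scaling and 73.97% when scaled to spike-in reads. The median moved between 0.00 and 0.47 under these scalings, so some list medians are also given relative to 0.24. At equal depth 55.1% of the genes past 2-fold were higher in the high wells, and by the mean of per-well CPM 55.3%. In plate rows A to D alone the median of all genes was 0.028 and in rows E to H it was 0.81.

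Naive pluripotency genes had the highest median of the gene lists by this measure, though not under each alternative. Of 25 listed genes in the table, 16 were measured, of which 9 were at least 2-fold higher and 0 at least 2-fold lower, set against the background of 26.5% and 15%. The list median was 1.21, or 0.98 above the median of all genes. It was 0.77 without each gene's top well, when 6 were higher and 1 lower, and 1.19 without replicate 4. The 6 included Tbx3, which was not past 2-fold with all wells. In plate rows A to D alone the list median was 0.96, with 8 genes higher and 1 lower beside a background of 25.9% and 24.6%. In rows E to H it was 1.19, with 8 higher and 0 lower beside 45.4% and 11.8%. Together the listed genes took 1.05% of pooled gene reads in the high wells and 0.570% in the low wells. Per well that share ran from 0.352% to 1.98% with a median of 0.828% in the high group, and from 0.139% to 1.63% with a median of 0.393% in the low group. The groups overlapped over most of this range, and the middle wells had a median of 0.553%. Other lists had a higher median than the naive list under 4 of the 5 alternatives for which all lists were computed, the exception being without replicate 4. G2 and mitosis was above it without top wells (0.78 against 0.77), S phase at equal depth (0.96 against 0.91) and core pluripotency in the upper rows A to D (1.04 against 0.96). Above its 1.19 in rows E to H were 4 lists, namely G2 and mitosis (2.26), LIF and STAT3 (2.005), Wnt (1.40) and glycolysis (1.26).

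Tdh, the threonine dehydrogenase that mouse ES cells are known to depend on for one-carbon metabolism, was read in all 12 high wells and in 9 low wells. Its per-well values ran from 11.9 to 5651 CPM with a median of 1372 in the high group and from 0 to 5159 CPM with a median of 140.9 in the low group. The medians lay far apart while the ranges overlapped, since 1 low well came close to the highest high well. Pooled, Tdh stood at 1962 CPM (95% interval 1909 to 2016) against 500.8 (469.0 to 534.2), a log2 ratio of 1.95, and 1.504 without its top well. The ratio was 0.84 in rows A to D, short of 2-fold, and 4.73 in rows E to H. Stray Tdh reads in MEFs came to 2.42 CPM.

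Klf5, a Krüppel-like factor of the naive network, had reads in 6 high wells and 3 low wells and pooled levels of 220.8 against 37.5 CPM. Its log2 ratio was 2.28, but −0.077 in plate rows A to D and 5.11 in rows E to H. Jam2, a junctional adhesion molecule on the list, was read in 7 against 2 wells at 126.0 against 16.8 CPM, with a ratio of 2.34, and of 2.16 without its top well. Ooep and Tcl1, the latter a coactivator of Akt, were 108.1 against 22.3 CPM and 196.1 against 59.8 CPM, and both were past 2-fold without their top wells. Zfp57, a zinc finger protein that protects imprints, was read in 6 high wells and 1 low well, at 31.6 against 8.15 CPM, and Fbxo15, a known Pou5f1 and Sox2 target, in 6 against 2 wells at 89.9 against 32.6 CPM. Without their top wells the ratios of Zfp57 and Fbxo15 were 0.94 and 0.99.

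Other members past 2-fold rested on 1 cell. For Fgf4, the ligand that drives ERK signalling in ES cells, pooled levels were 82.6 against 19.6 CPM, and 82.5% of its high-group reads came from 1 well, so that the ratio went from 1.65 to −0.19 without it. For Dppa4, a chromatin protein of pluripotent cells, the ratio went from 1.25 to −1.40 in the same way.

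Several defining naive factors did not pass 2-fold. Esrrb, a nuclear receptor, was read in 5 against 6 wells at 96.3 against 57.04 CPM. Klf2 was read in 5 against 7 wells at 80.7 against 102.1 CPM, and Klf4 in 3 against 6 wells at 50.3 against 79.9 CPM. Tbx3, a T-box factor, stood at 62.1 against 65.2 CPM, and 95% of its low-group reads were in 1 well. Its ratio was −0.06 with that well and 2.41 without it, but 1 high well, which was kept, held 65.6% of the high-group reads. Tcfcp2l1, as the table names Tfcp2l1, was read in 10 high and 5 low wells, yet pooled at 178.2 against 337.9 CPM because 1 low well held 70.3% of the low-group reads. Its ratio was −0.89 with that well and 0.50 without it.

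Dppa5a, a marker that is abundant in naive cells, was read in every well. It ran from 1264 to 12681 CPM with a median of 5499 in high wells and from 563.1 to 13868 CPM with a median of 2000 in low wells. The ranges overlapped almost fully although the low group's median was lower. Its ratio was 0.71 over all wells, 1.43 in rows A to D and −0.11 in rows E to H. Stray Dppa5a reads were also in all 4 negative control wells, 43 reads in all.

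Nanog, the homeobox factor best known for uneven levels between ES cells, was below the filter. It was read in 3 of 12 high wells (25%, exact 95% interval 5.49% to 57.2%) and in 1 of 12 low wells (8.33%, 0.211% to 38.5%). Pooled levels were 79.96 against 62.47 CPM, the latter from that 1 well. Dppa3 (Stella), another gene known for uneven levels, had 14 reads in 2 high wells and none in the low wells, which is at least 3.27-fold higher with 3 reads as the floor over the low group. The intervals of Nanog overlapped, and both genes rest on few wells. Gbx2, Pecam1 and Prdm14 had no read in any of the 24 wells.

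**Figure D3:**
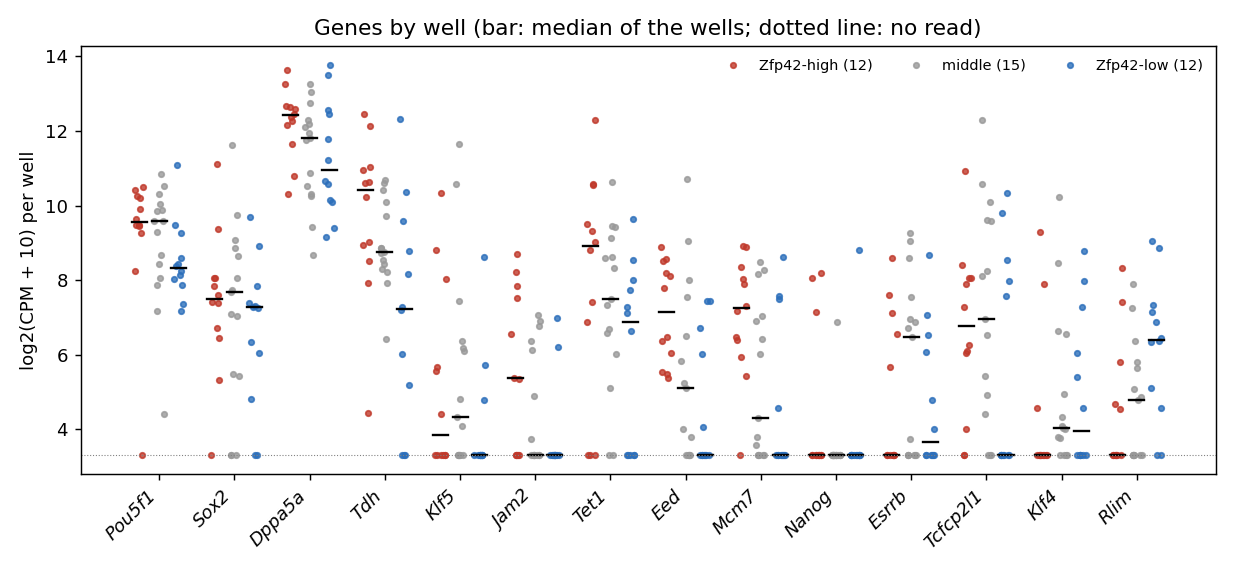
Per-well levels of 14 genes as log2 of CPM + 10 (y axis) in the 12 high, 15 middle and 12 low wells, with 1 point per well, a bar at the median and a dotted line at the value of no read. Tdh, Dppa5a, Pou5f1, Eed and Mcm7 have higher medians in the high wells, Rlim has a higher median in the low wells, and for Nanog most wells of each group lie on the line of no read.

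The core pluripotency factors were read in nearly every well of both groups. Pou5f1 was read in 11 of 12 high and 12 of 12 low wells, and Sox2 in 11 and 10. In MEFs both stood near the stray level, 2.59 CPM for Pou5f1 and 2.90 CPM for Sox2. Pou5f1 ran from 0 to 1431 CPM with a median of 749.6 in high wells and from 133.6 to 2169 CPM with a median of 309.5 in low wells. Its highest value was thus in a low well and its only 0 in a high well, although the high median was above that of the low wells. Pooled, Pou5f1 stood at 870.4 CPM (835.1 to 906.9) against 494.3 (462.7 to 527.5), a log2 ratio of 0.80, and of 0.70 without its top well. The ratio was 0.75 in rows A to D and 1.26 in rows E to H.

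Sox2 stood at 393.3 against 217.3 CPM, with well medians of 171.7 and 144.5. Replicate 11 held 54.4% of the high-group reads of Sox2, and the ratio went from 0.83 to −0.12 without that well. Of the 17 core genes, 14 were measured, 4 were at least 2-fold higher and 1 lower, and the median was 0.74, or 0.51 relative to all genes. Among those higher were Trim71, an RNA-binding ubiquitin ligase, Tdgf1 (Cripto), the Nodal co-receptor, and Sall4, a zinc finger factor. Replicate 11 held 82.4% of the high-group reads of Trim71, and its ratio went from 2.11 to 0.17 without that well. The ratio of Sall4 went from 1.47 to 0.52 without the same well. Tdgf1 was read in 11 against 8 wells, at 413.1 against 137.4 CPM, and its ratio went from 1.52 to 1.00 without its top well. Lin28a, the let-7 inhibitor, was the lower one at 223.5 against 706.2 CPM, but 1 well held 97.4% of its reads on the high side and 98.2% on the low side, so its ratio of −1.62 compares 2 cells.

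Genes of the primed and formative epiblast were mostly not read in either group. Of 23 listed genes in the table, 5 were measured, with 0 higher, 1 lower and a median of −0.37. That median changed sign with the choice of wells, from −1.32 in rows A to D to 1.05 in rows E to H, where the medians of all genes were 0.028 and 0.81, and was 0.13 without replicate 10. Fgf5 and Pou3f1, defining primed markers, had no read in the 24 wells. Otx2, a homeobox factor of the primed epiblast, was read in 3 high wells and 1 low well, at 172.5 against 19.01 CPM. Dnmt3b, the de novo DNA methyltransferase, had 96 reads in 2 high wells, 93.8% of them in 1 well, and none in low wells. The member that was lower was Cdh2 (N-cadherin), read in 2 against 5 wells at 2.28 against 34.8 CPM, and 40.6% of its low-group reads were in replicate 4. Its ratio was −1.87 with that well and −1.35 without it. Etv5, an ERK-responsive ETS factor, was read in 6 of 12 high and 10 of 12 low wells, at 97.9 against 199.9 CPM, a ratio of −0.96 that was −1.32 in rows A to D and −1.22 in rows E to H. The summed share of these genes had a median over wells of 0.0230% in high wells and 0.0402% in low wells. Pooled, the order was reversed, at 0.0442% of gene reads in high wells against 0.0392% in low wells.

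Markers of other fates were close to absent. None of the 18 mesendoderm and germ layer genes, the 11 trophoblast genes or the 13 genes of the 2-cell-like state passed the filter, and the 2-cell-like genes had no read at all. Among primitive endoderm genes 4 of 17 were measured, with 0 higher and 1 lower, and Gata6, a defining factor of that lineage, had no read. The lower one, Col4a1, a basement membrane collagen that fibroblasts also make, stood at 21.3 against 63.01 CPM, and its ratio went from −1.22 to −0.86 without replicate 4. Sparc, a matrix glycoprotein likewise made by fibroblasts, stood at 203.3 against 335.7 CPM, a ratio of −0.70 that was −0.26 without replicate 4. Col4a2 stood at 45.3 against 35.9 CPM. The median of the 4 genes was −0.30, and −0.046 without replicate 4, when none was past 2-fold.

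Fibroblast genes lay on the Zfp42-low side by pooled ratio, with a count that rested on replicate 4. Of 22 listed genes 16 were measured, with 0 higher and 7 at least 2-fold lower and a median of −0.94. Without replicate 4 the count was 1, beside 12.8% of all genes, and the median was −0.51. The genes took 0.213% of pooled gene reads in high wells and 0.445% in low wells. The medians over wells lay closer, at 0.169% and 0.192%, and the low median was 0.175% without replicate 4. Col1a2, a collagen chain, was read in 11 wells of each group, at 83.8 against 316.1 CPM, and its ratio went from −1.80 to −1.30 without replicate 4. Col1a1, the other chain of collagen I, stood at 41.5 against 135.8 CPM, and Tagln, an actin-binding protein, at 19.04 against 66.3 CPM. Without replicate 4 their ratios went from −1.50 to −0.999 and from −1.39 to −0.90. In rows E to H, where replicate 4 does not lie, the list median was 0.83 beside 0.81 for all genes, and in rows A to D it was −1.36 beside 0.028. The defining fibroblast genes Dcn and Lum had at most 5 reads in either group.

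**Figure D4:**
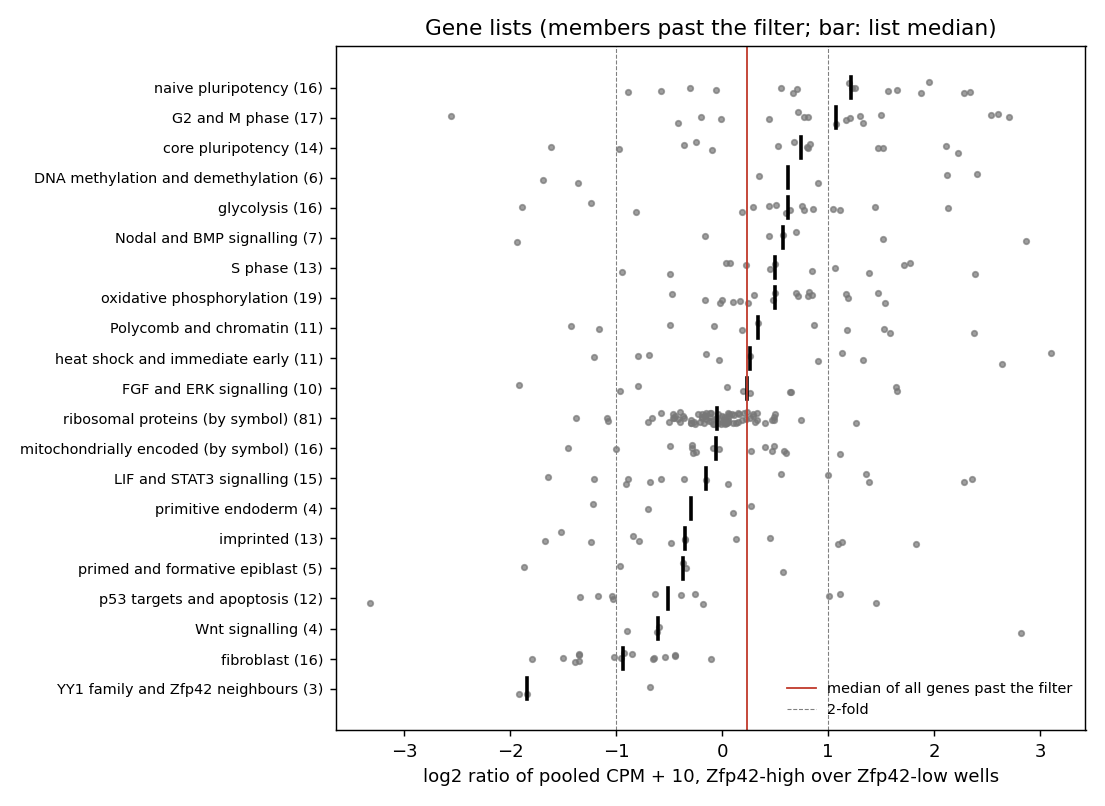
Log2 ratio of pooled CPM + 10, Zfp42-high over Zfp42-low wells (x axis), for the measured members of each gene list (y axis, number measured in parentheses), with 1 point per gene, a black bar at each list's median, a red line at the median of all genes (0.24) and dashed lines at 2-fold. The naive list has the highest median by this measure, 1.21, with no member past 2-fold on the low side, and fibroblast genes lie at a median of −0.94.

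Genes of the dividing cell were uneven over the plate, as were all genes, whose median was 0.028 in rows A to D and 0.81 in rows E to H. Among genes of G2 and mitosis, 17 were measured, of which 9 were past 2-fold on the high side and 1 on the low side, beside 26.5% and 15% of all genes, with a median of 1.07. Without each gene's top well the counts were 4 and 1, and the median was 0.33 in the upper plate rows (A to D) and 2.26 in the lower ones (E to H). Ccna2, cyclin A2, was read in 6 of 12 high wells and in 0 of 12 low wells (exact 95% interval 0% to 26.5%). Its 145 reads against 0 put it at least 33.9-fold higher with the floor of 3 reads over the low group. With all ranked wells split at the middle, however, its ratio was −0.70. Tpx2, a spindle assembly factor, was read in 4 against 3 wells and stood at 107.0 against 9.23 CPM. Replicate 11 held 55.5% of its high-group reads, and its ratio went from 2.60 to 1.70 without that well. Kif20a, a kinesin of cytokinesis, went the other way at 27.03 against 208.1 CPM.

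Of 13 measured S phase genes, 5 were higher and 0 lower, with a median of 0.50. That median was 0.20 without top wells, when 4 were higher. It was −0.13 in rows A to D and 0.87 in rows E to H, beside 0.028 and 0.81 for all genes. Mcm7, a subunit of the MCM replicative helicase, was read in 11 of 12 high wells (91.7%, 61.5% to 99.8%) and in 4 of 12 low wells (33.3%, 9.92% to 65.1%). It ran from 0 to 477.1 CPM with a median of 141.9 in the high group and from 0 to 384.6 CPM with a median of 0 in the low group. These counts of wells were the same at equal depth, 11 and 4. The pooled ratio of 1.71 was −0.13 in rows A to D and 4.76 in rows E to H. Mcm4 and Mcm6, of the same helicase, had ratios of 2.38 and 1.77, whereas Mcm2 and Mcm5 stood at −0.50 and −0.94.

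The DNA methylation list held members on both sides. Tet1, the main enzyme that oxidises methylated cytosine in ES cells, was read in 9 against 7 wells. It ran up to 5040 CPM with a median of 473.9 in high wells and up to 788.5 CPM with a median of 109.8 in low wells, with wells at 0 in both. Pooled, Tet1 stood at 1015 CPM (976.9 to 1054) against 183.1 (164.0 to 203.7), a ratio of 2.41. That ratio was 1.63 without its top well, 2.60 in rows A to D and 2.57 in rows E to H. Dnmt1, the maintenance methyltransferase, stood at 151.9 against 27.2 CPM, with ratios of 3.71 in rows A to D and −0.48 in rows E to H. Mbd3, a subunit of the NuRD complex, was lower at 7.62 against 46.7 CPM, and Tet3 had a ratio of −1.36 that was 0.18 without its top well. In all, 2 of 6 measured members were higher and 2 lower, with a median of 0.62.

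Among Polycomb and chromatin genes, 4 of 11 measured were higher and 2 lower, with a median of 0.34, or 0.10 relative to all genes. Eed, the PRC2 subunit that binds methylated histone H3, was read in 12 of 12 high wells (100%, 73.5% to 100%) and in 5 of 12 low wells (41.7%, 15.2% to 72.3%). Its values ran from 31.4 to 464.3 CPM with a median of 146.0 in the high wells and from 0 to 165.0 CPM with a median of 0 in the low wells. No high well was at 0, while 7 low wells were, and the groups overlapped between 31.4 and 165.0 CPM. At equal depth it was read in 10 against 4 wells. The pooled levels were 165.3 against 48.3 CPM, with a ratio of 1.59 over all wells, 3.15 in rows A to D and 0.10 in rows E to H. Suz12, another PRC2 subunit, stood at 155.0 against 63.01 CPM, with a ratio of 1.18 that was 0.61 without its top well. Rbbp4, a histone-binding subunit shared by PRC2 and NuRD, stood at 100.9 against 11.4 CPM. Kdm1a, a histone demethylase, stood at 43.8 against 8.69 CPM. The lower members were Hdac1 and Rbbp7, with ratios of −1.42 and −1.16, or −1.05 and −0.61 without their top wells.

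Signalling lists were split. For LIF and STAT3, the pathway that sustains mouse ES cells in culture, 4 of 15 measured genes were higher and 2 lower, and the median of −0.15 became 0.37 at equal depth. Without top wells 3 were higher and 0 lower. Pim3, a kinase gene induced by STAT3, stood at 88.7 against 9.23 CPM, while Lifr, the LIF receptor, had 4 reads against 48, with a ratio of −1.65 that was −0.57 without its top well. For FGF and ERK, 2 of 10 were higher and 1 lower, or 0 and 1 without top wells. Fgfr1, a receptor, stood at 105.9 against 27.2 CPM, and its ratio went from 1.64 to 0.44 without its top well. Sos1, the exchange factor that activates Ras, stood at 7.996 against 58.12 CPM. For Nodal and BMP, 2 of 7 were higher and 1 lower. Lefty1, a Nodal inhibitor, stood at 110.8 against 6.52 CPM with 79.7% of the high-group reads in 1 well, Lefty2 at 161.8 against 116.8 CPM, and Foxh1, the nuclear partner of Smad proteins, at 10.7 against 68.99 CPM. Id1 and Id3, targets of BMP, had ratios of 0.57 and 0.69. For Wnt, 1 of 4 was higher and 0 lower. That gene, Ctnnb1 (beta-catenin), was read in 9 against 7 wells at 363.2 against 42.9 CPM, with a ratio of 2.82, and of 2.25 without its top well. Apc, which promotes beta-catenin breakdown, stood at 21.3 against 48.3 CPM, and Ccnd1, cyclin D1, at 35.8 against 60.3 CPM. The list medians were 0.23 for FGF and ERK, 0.57 for Nodal and BMP and −0.61 for Wnt, the last from 4 genes.

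Metabolic genes were past 2-fold on the high side about as often as the background. In glycolysis 4 of 16 measured genes were higher and 2 lower, with a median of 0.62. Without top wells 1 was higher and 0 lower, with a median of 0.31. Ldha, lactate dehydrogenase, stood at 396.0 against 82.6 CPM with 64.04% of the high-group reads in 1 well, and Pfkp, a phosphofructokinase, at 54.1 against 226.5 CPM. Slc2a1, a glucose transporter, stood at 31.98 against 5.43 CPM. Without their top wells the ratio of Pfkp went from −1.88 to −0.78 and that of Slc2a1 from 1.44 to 0.72. In oxidative phosphorylation 4 of 19 were higher and 0 lower, with a median of 0.50, and 13 members were read in more high than low wells at equal depth against 1 in the reverse, beside 49.8% and 30.8% of all genes. Cox7a2, a subunit of cytochrome oxidase, was read in 12 against 10 wells. It ran from 251.4 to 2815 CPM with a median of 946.4 in high wells and from 0 to 1869 CPM with a median of 268.4 in low wells, so the ranges overlapped while the low median was lower. Its ratio was 1.54, and it was 1.44 in rows A to D and 1.40 in rows E to H. At equal depth the ratio was 1.19, and it was 1.01 without the top well, which held 46.7% of the high-group reads. Uqcrc1, a core subunit of the cytochrome bc1 complex, stood at 52.2 against 12.5 CPM, and Cox5b at 95.95 against 36.4 CPM, with a ratio of 1.19 that was 0.62 without its top well. Of 16 mitochondrially encoded genes 1 was higher and 2 were lower, with a median of −0.06, and of 81 ribosomal protein genes 1 and 3, with a median of −0.05.

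Stress, p53 and imprinted genes had no common direction. Of 11 measured heat shock and immediate early genes, 4 were higher and 1 lower, with a median of 0.27, and without top wells 1 was higher and 1 lower. Hmox1, haem oxygenase, had a ratio of 2.64 that became −1.36 without the 1 well that held 96.7% of its high-group reads. Ddit3 (CHOP), a factor of the unfolded protein response, stood at 34.3 against 7.60 CPM, a ratio of 1.33 that was 0.60 without its top well. Ier2, an immediate early gene, stood at 141.6 against 7.60 CPM, with 80.1% of the high-group reads in 1 well. Of 12 measured p53 targets and apoptosis genes, 3 were higher and 5 lower, with a median of −0.51. Without top wells 0 were higher and 1 lower, with a median of −0.19, and without replicate 4 the counts were 3 and 3, with a median of −0.26. Bbc3 (PUMA), a pro-apoptotic p53 target, was the furthest at 2.28 against 113.0 CPM, with 73.6% of the low-group reads in 1 well, and Trp53 itself stood at 14.1 against 51.1 CPM with 3 wells read on each side. Sesn2, a sestrin, went the other way at 81.1 against 23.4 CPM. Without their top wells the ratio of Trp53 went from −1.34 to −0.26, that of Sesn2 from 1.45 to 0.71 and that of Bbc3 from −3.32 to −1.93. Of 13 imprinted genes, 3 were higher and 3 lower, with a median of −0.35, and without top wells 1 was higher and 1 lower. Mest stood at 35.03 against 2.716 CPM, Rian at 37.7 against 141.8 CPM, and Igf2, which MEFs express at 855.4 CPM, at 35.8 against 121.1 CPM. Without replicate 4 the ratio of Igf2 went from −1.52 to −0.95.

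The last list held the YY1 family and the neighbours of Zfp42 with its regulator Rlim, of which 3 of 11 were measured, 0 higher and 2 lower, with a median of −1.84. Rlim (Rnf12) is the ubiquitin ligase known to target the Zfp42 protein for degradation. It was read in 5 of 12 high wells (41.7%, 15.2% to 72.3%) and in 10 of 12 low wells (83.3%, 51.6% to 97.9%). Rlim ran from 0 to 313.3 CPM with a median of 0 in high wells and from 0 to 518.7 CPM with a median of 75.2 in low wells, so the ranges overlapped. Pooled it stood at 36.6 CPM (29.6 to 44.6) against 157.0 (139.4 to 176.2), a ratio of −1.84. Without its top well the ratio was −1.44, in rows A to D −1.92 and in rows E to H −1.94. The neighbour Fat1, a giant cadherin that MEFs express at 1024 CPM, stood at 36.9 against 166.8 CPM with a ratio of −1.91, or −1.69 without replicate 4, and Frg1 at 89.5 against 149.9 CPM.

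The genes with the largest differences were named by a rule that asked for reads in at least 6 wells of the higher group and a difference of at least 2-fold the same way in pooled CPM, in the mean over wells, at equal depth and without the top well, which 269 genes met on the high side and 83 on the low side. Chd4, the remodelling ATPase of NuRD, was highest at 855.2 CPM (820.2 to 891.3) against 12.5 (7.92 to 18.7), a ratio of 5.27, and it was read in 7 against 5 wells. One well, replicate 11, held 67.6% of its high-group reads at 6004 CPM. The ratio without its top well was 4.97, but that well was replicate 40, a shallower one at 6496 CPM, so replicate 11 was kept. The median of Chd4 over the high wells was 17.4 CPM. Psmd4 and Psmd14, subunits of the regulatory particle of the proteasome, had ratios of 4.61 and 4.25. Replicate 47 held 77.5% of the high-group reads of Psmd4, and the ratio was 2.95 without that well. Psmd14 was among the most even of these genes, as no well held more than 26.2% of its high-group reads. It ran from 0 to 1441 CPM with a median of 355.8 in high wells and from 0 to 109.0 CPM with a median of 0 in low wells.

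Mfap1a, a splicing factor gene that has a near-identical copy and is therefore uncertain, was read in 10 high wells and 1 low well at 161.8 against 1.63 CPM. Wdr82, a subunit of Set1 histone methyltransferase complexes, was read in 8 against 2 wells, with a ratio of 4.25, and of 2.62 without its top well. Nup214 of the nuclear pore, Cpsf2 of the cleavage and polyadenylation complex, Tspan14, a tetraspanin, and 6330578E17Rik were also in the set, with ratios between 3.78 and 4.14 and between 1.18 and 2.60 without their top wells.

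On the low side, Srrm2, a scaffold of nuclear speckles, had the lowest ratio, −4.88, at 40.4 against 1472 CPM. It was read in 7 against 9 wells, 91.1% of the low-group reads were in 1 well, and the ratio was −1.76 without it. One well also held 94.1% of the low-group reads of Wdr43, a ribosome assembly factor, and 91.2% of those of Thrap3, a splicing-associated protein. Sh3d19, an SH3 adaptor, was more even, being read in 2 high wells (16.7%, 2.09% to 48.4%) and 8 low wells (66.7%, 34.9% to 90.1%). It ran from 0 to 102.2 CPM with a median of 0 in high wells and from 0 to 1563 CPM with a median of 39.05 in low wells. Its ratio was −3.60, and −2.90 without its top well. Chd8, a chromodomain remodeller, Uap1l1, Aldh7a1, an aldehyde dehydrogenase, Tomm70a, a mitochondrial import receptor, and the septin Sept11 were also in the set, with ratios between −3.54 and −3.04.

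**Figure D5:**
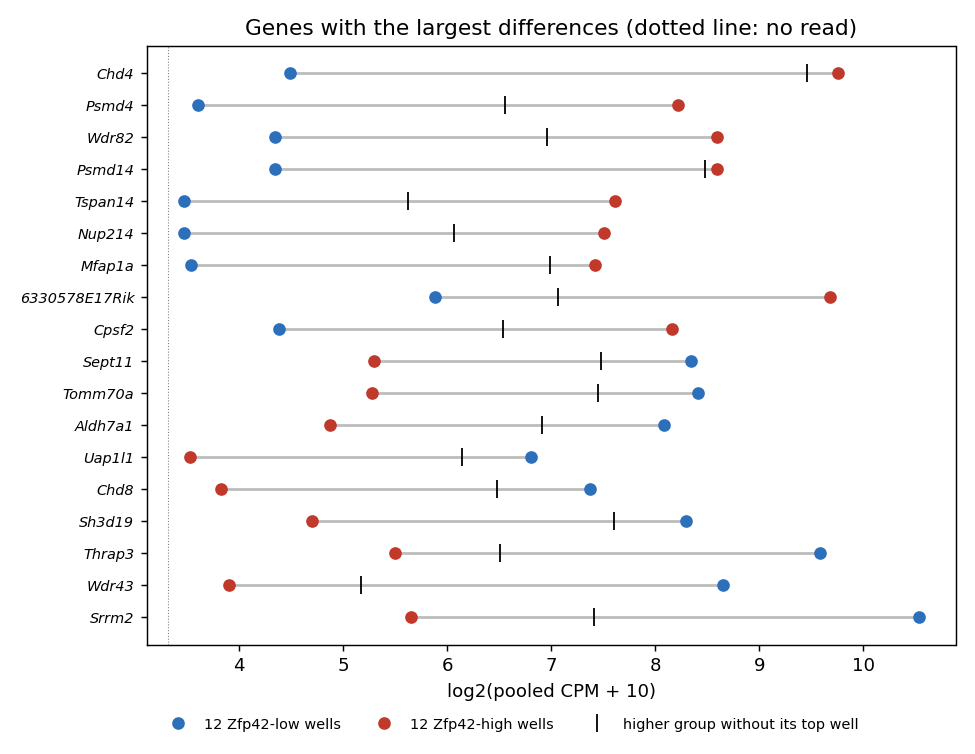
Pooled level as log2 of CPM + 10 (x axis) of 9 of the highest and 9 of the lowest named genes (y axis) in the 12 Zfp42-high wells (red) and the 12 Zfp42-low wells (blue), with a black tick for the higher group without its well of highest CPM. The tick stays near the point for Psmd14 and moves far toward the other group for Srrm2, Wdr43 and Thrap3. It also stays near for Chd4, but there the well with 67.6% of the high-group reads was kept.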

How the data were processed

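The deposited table held raw read counts per gene, repeat type and spike-in RNA in each of 96 wells. The authors made these counts per the file headers as maximum exon hits, so a read that maps in several places counts at each, and genes with near-identical copies are uncertain. The reads were processed with Bowtie per the submitters' processing notes; for the version, build and annotation, nothing is given in the sources used here. No molecular identifiers were mentioned, so intervals cover counting error only and PCR copies were counted apart. Every column of per-well values was mapped to a sample by its well, with 0 left over, and no 2 of the wells used held identical gene counts.

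From the counts, CPM was computed per well over the 21711 gene rows, without the 1217 repeat and 8 spike-in rows. Wells of a group were pooled by summing reads, and ratios were taken as log2 of pooled CPM with 10 CPM added, high over low. Pooled CPM carried exact Poisson intervals and shares of wells exact Clopper-Pearson intervals at the 95% level. Equal depth means thinning each well at random to 50000 gene reads. A group sum of 0 took a floor of 3 reads. With 12 wells of 1 cell a group, treated as 1 culture, no test was run. Doublets were not screened, as the labels give 1 cell a well. The calculation was tested on simulated data.

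The wells, the 22 gene lists and the naming rule were chosen with earlier results of these data known. Named were the 10 highest and 10 lowest genes under the rule given in the report, the 3 measured members of each list with the largest absolute ratio, and Zfp42, Pou5f1, Sox2, Nanog, Esrrb, Klf2, Klf4, Klf5, Tcfcp2l1, Tbx3, Dppa3, Dppa5a, Tdh, Fgf4, Fgf5, Otx2, Pou3f1, Dnmt3b, Lefty1, Lefty2, Gata6, Id1 and Id3. For repeats, the 4 rows with the largest absolute ratio and all MERVL and MT2 rows were named. Of these, 3 genes are not reported here. Other list members and Rpl4 were named after their values were seen. Symbols defined the groups of ribosomal protein genes and of genes on the mitochondrial genome. Promoters came from RefSeq on GRCm38.p6 and were matched by symbol. Alternatives covered scaling, the CPM added, the filter, equal depth, plate rows, the number and ranking of wells, the depth minimum and the leaving out of wells. Python 3.11.15, numpy 2.4.6, pandas 2.3.3, scipy 1.17.1 and matplotlib 3.10.9 were used.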

Additional observations from a re-analysis of the deposited data

How the results depend on the processing

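The numbers of genes past 2-fold moved most with the alternatives. Higher and lower genes numbered 429 and 163 with 50 CPM added, 2110 and 1380 with no filter beyond 1 read, and 280 and 103 with a filter of 200 reads and 12 wells. They numbered 551 and 186 with 8 wells a group, 526 and 300 with a minimum of 100000 gene reads and 8 wells a group, and 562 and 250 without each gene's top well. Plate rows E to H alone gave 1596 higher genes and rows A to D alone 864 lower ones. The gene set was kept for subsets of wells and made anew for other groupings, and the cause of these shifts was not tested beyond the number of genes and wells each setting uses.

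The median of the naive list stayed above 0 in all 18 settings tried besides leaving out 1 well, and was 0.49 with 8 wells a group and 0.52 with the minimum of 100000 gene reads. The primed median was −1.73 and −1.40 under the same settings, and it changed sign to 1.05 in rows E to H, 0.31 with the ranked wells split at the middle and 0.13 without replicate 10. Leaving out each of the 24 wells in turn, an alternative chosen after seeing the data, gave 872 to 1013 higher genes, 449 to 608 lower genes, naive medians of 0.93 to 1.36, primed medians of −0.64 to 0.13 and core medians of 0.23 to 0.87. The lowest core median came without replicate 11. Leaving out wells with more spike-in than gene reads changed nothing, as none of the 24 was such a well, and ranking by Zfp42 without ribosomal reads shared 11 high and 12 low wells with the rule.

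Of 1488 log2 ratios of named genes under 16 alternatives, 1302 moved by less than the SD over wells and 151 by more. That SD, of the per-well log2 levels, is wide: Eed at 1.59, and 0.10 in rows E to H, counted as moved by less. A change of sign was counted only for genes past 2-fold, not for all 93 named genes. It was seen for 35 values, in 27 genes. In rows A to D these were Hmox1 (−1.65), Mest (−0.25), Mcm4 (−0.14), Mcm7 (−0.13) and Klf5 (−0.077). In rows E to H they were Lin28a (5.24), Pfkp (2.02), Aldh7a1 (1.70), Igf2 (1.64), Tagln (0.85), Col1a1 (0.52), Wdr43 (0.38), Trp53 (0.25), Bbc3 (0.090), Dnmt1 (−0.48) and Cox5b (−0.60). With 8 wells a group they were Lin28a (0.89), Thrap3 (0.59), Tagln (0.15), Col4a1 (0.12), Col1a1 (0.10), Hmox1 (−0.0424) and Klf5 (−0.046). With the split at the middle they were Lifr (0.86), Rian (0.86), Col4a1 (0.42), Cdh2 (0.094), Foxh1 (0.00591), Lefty1 (−0.83), Ccna2 (−0.70) and Uqcrc1 (−0.14). With the minimum of 100000 gene reads it was Ier2 (−0.094), and without the top well Lin28a (3.20), Hmox1 (−1.36) and Fgf4 (−0.19). The causes were not tested.

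No paired analysis was possible because the replicate numbers only name wells and no number is shared between the groups. Genes such as Nanog and Dppa3 were read in few wells, and the part of depth in this was not tested. All values rest on 12 cells a group, treated as 1 culture, and cannot show variation between cultures, plates or libraries.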

Other observations

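Reads on repeat families, which the comparison of genes leaves out, numbered 27.8 per 100 gene reads in Zfp42-high wells and 31.3 in Zfp42-low wells when pooled. Of 1217 repeat rows 314 passed the same filter, of which 52 were at least 2-fold higher and 41 lower, with a median log2 ratio of −0.01. The furthest were L1MB2, a remnant of an old LINE-1 family, at 734.1 against 32.6 CPM, the simple repeat (TTC)n at 202.9 against 3.802 CPM, the LTR family RMER21B at 33.1 against 568.2 CPM, and HY3, related to a small cytoplasmic RNA, at 440.9 against 31.5 CPM. Without the top well their ratios went from 4.13, 3.95, −3.74 and 3.44 to 0.23, 0.98, −0.19 and 1.33.

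MERVL, the endogenous retrovirus known as a marker of the rare 2-cell-like state of ES cells, had no common direction over its repeats. Its internal part had 165 reads in 8 high wells against 23 reads in 6 low wells, or 62.8 CPM (53.6 to 73.2) against 12.5 (7.92 to 18.7). The log2 ratio was 1.69, and 1.33 without the top well. The middle wells were above both groups, at a pooled 113.2 CPM with reads in 11 of 15 wells and up to 1200 CPM in a well. Its promoter repeat MT2_Mm was read in 4 against 5 wells at 35.8 against 17.4 CPM, and the related MERVL_2A-int in 7 against 3 wells at 23.99 against 43.46 CPM. No gene of the 2-cell-like list had a read in these wells. Repeat counts hold reads that map to many places.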
